A study of Mus musculus with 3 samples.

Results

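The Cd163 Mrc1 macrophages were cells of the graft library with at least 2 unique molecular identifiers (UMIs, each marking 1 captured RNA molecule) for Cd163 and at least 5 for Mrc1. They numbered 130 of the 2144 kept graft cells, or 6.06% (95% interval 5.09 to 7.16%), and the 3 libraries of the study held 18226 kept cells in all. A kept cell had at least 300 detected genes, fewer than 100000 gene UMIs and less than 10% mitochondrial UMIs. Because the cells were chosen by their Cd163 and Mrc1 counts, the levels of those genes only describe the choice.

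Human split-thickness skin (hSTSG) lay for 14 days beneath the skin of wild-type C57BL6/J mice, and cells of grafts from 5 mice, released with collagenase IV, were pooled into 1 droplet library. Each of the other 2 libraries held marrow cells of C57/BL6 mice cultured with GM-CSF, either untreated (Co-Mac) or exposed for 24 h to 1,25-dihydroxycholecalciferol, the active form of vitamin D3 (VD-Mac). The labels gave no age for the mice, and the counted genes were mouse genes, so RNA of human cells was not measured. The graft library held 24472168 gene UMIs over 2644 barcodes, the Co-Mac library 136905324 over 7866 and the VD-Mac library 124731240 over 9794. Kept cells had a median of 6637.5 UMIs in the graft library, 15804 in Co-Mac and 12089 in VD-Mac. Before any filter, the graft library shared 7 barcodes with Co-Mac, 1 of them in a Cd163 Mrc1 macrophage, and 7 with VD-Mac, 2 of them in such macrophages.

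CD163 takes up complexes of haemoglobin and haptoglobin, and the mannose receptor encoded by Mrc1 clears glycoproteins and collagen fragments. Macrophages that carry both are known from the connective tissue of many organs, skin included, where they lie near vessels and nerves and clear debris. Some of them also carry LYVE1, a hyaluronan receptor better known from lymphatic vessels. Macrophages that carry TREM2, a receptor for lipids and dying cells, are known from fatty, scarred and regenerating tissue.

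With 1 library per condition, and cells of 1 library no replicates of each other, no test was made. Levels are given as CPM, the UMIs of a gene summed over the cells of a group for every 1000000 gene UMIs of those cells. All intervals are at 95% and cover counting error only, so the spread among mice is not in them.

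Among the 130 macrophages, Cd163 ranged from 2 to 299 UMIs per cell with a median of 22.5, and Mrc1 from 5 to 449 with a median of 66.5. The cells had a median of 12998.5 gene UMIs (1347 to 64481) and 3447.5 genes. Most lay far above the Cd163 minimum: 111 had 6 or more UMIs, 6 had 4 or 5, and 13 had 2 or 3. Those 13 cells, just inside the limit, had medians of 3 Cd163 UMIs, 20 Mrc1 UMIs and 3555 gene UMIs. Just outside it, 45 cells with a single Cd163 UMI and at least 5 Mrc1 UMIs had medians of 21 Mrc1 UMIs and 10074 gene UMIs. Another 5 cells had at least 2 Cd163 UMIs but fewer than 5 Mrc1 UMIs. Mrc1 alone was far more widespread, since 546 cells had at least 5 Mrc1 UMIs and no Cd163.

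**Figure D1:**
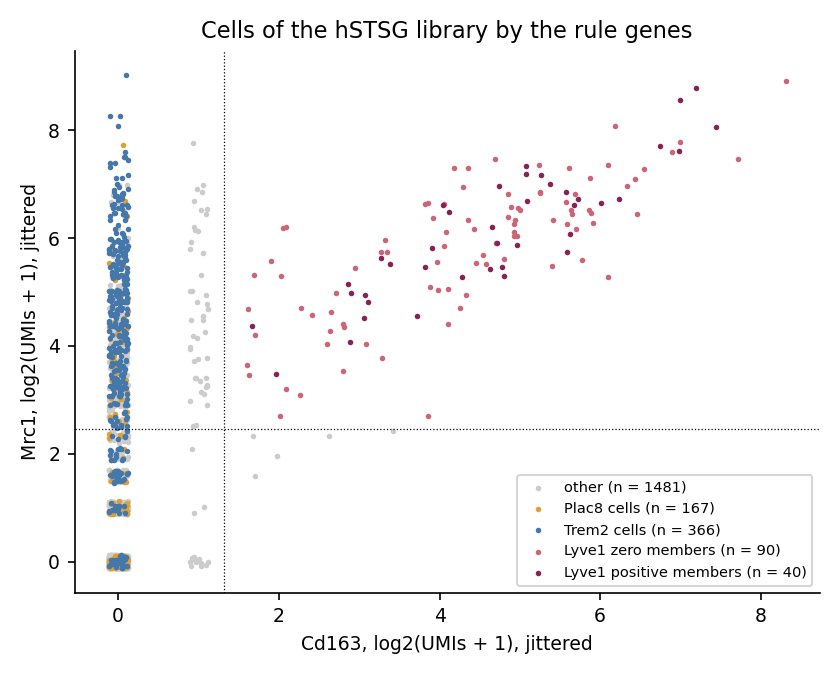
UMIs per kept graft cell of Cd163 against Mrc1, on log2 scales with 1 UMI added, with dotted lines just below the minimum counts that chose the 130 macrophages (members). Points are single cells, slightly shifted at random, coloured by group, and 546 cells with at least 5 Mrc1 UMIs had no Cd163.

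The remaining 4 markers of these cells took no part in the choice. They were, however, named with earlier results of these data known, so their levels are description and no independent support. Folr2 encodes folate receptor beta, Ccl8 a chemokine that attracts monocytes and T helper cells, Fcna the complement lectin ficolin A, and Cbr2 a carbonyl reductase. They were compared with cells that had at least 2 Trem2 UMIs and no Cd163 (Trem2 cells, 366 cells, 17.1% of kept cells, median 15727 UMIs). A further reference was cells with at least 3 Plac8 UMIs, at least 1 Csf1r UMI, no Cd163 and fewer than 2 Trem2 UMIs (Plac8 cells, 167 cells, 7.79%, median 11180 UMIs), Plac8 being a gene of monocytes. Since neither reference held Cd163, the groups differ in that gene by choice.

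Every macrophage had Ccl8, from 1 to 3002 UMIs per cell with a median of 205, while the median Trem2 cell had 1. Ccl8 reached 23786 CPM (23575 to 23998) in the macrophages, 2583 in Trem2 cells and 992 in Plac8 cells, log2 ratios of 3.20 (3.18 to 3.23) and 4.58 (4.52 to 4.65). It alone made up most of the marker RNA of these cells, yet both references carried some of it too. Cbr2 ranged from 0 to 79 UMIs per cell with a median of 7, and its 678 CPM compared with 80.9 in Trem2 cells and 20.9 in Plac8 cells, log2 ratios of 3.07 (2.93 to 3.21) and 5.02 (4.60 to 5.47). Folr2 ranged from 0 to 55 UMIs with a median of 4, and its 505 CPM compared with 167 and 17.4, log2 ratios of 1.60 (1.48 to 1.72) and 4.86 (4.40 to 5.36). Both were therefore nearer to the Trem2 cells than to the Plac8 cells. Fcna was the sparsest, from 0 to 18 UMIs with a median of 0, and its 114 CPM compared with 33.6 and 3.57, log2 ratios of 1.77 (1.50 to 2.03) and 5.00, the latter resting on 8 UMIs in Plac8 cells.

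A gene is found in more cells where cells are deeper, so each cell was also thinned at random to 2000 UMIs, which left out 4 of the macrophages. Cbr2 was then found in 61.1% of macrophages, 9.37% of Trem2 cells and 2.41% of Plac8 cells, and in 0 of 240 T cells, which allows up to 1.25%. Folr2 was found in 47.6% (38.7 to 56.7%), 16.8% and 2.41%, and in 0 of the T cells. T cells, which should lack these markers, had a median of 5888 UMIs before thinning, compared with 12998.5 in the macrophages. Fcna was found in 15.9% of macrophages and 3.03% of Trem2 cells, with 0.417% in T cells. Ccl8 was found in 96.8% of macrophages, 36.4% of Trem2 cells, 14.5% of Plac8 cells, 12.9% of T cells and 43.9% of fibroblasts (at least 20 collagen UMIs and no Ptprc), so its share did not set the references apart from all other cells. Its summed level was 992 CPM in Plac8 cells, 57.9 in T cells and 378 in fibroblasts, with 38.9% of the UMIs of the Plac8 cells in 1 cell. Without thinning, the shares of macrophages were 78.5% for Folr2, 45.4% for Fcna, 89.2% for Cbr2 and 100% for Ccl8, compared with 0.415, 0.415, 0.830 and 31.5% of T cells.

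Counted together without thinning, all 4 of these markers were present in 56 of the 130 macrophages (43.1%), 3 in 45, 2 in 19 and 1 in 10, and no macrophage lacked them all. Among Trem2 cells 41 of 366 had all 4 and 67 had none, and among Plac8 cells 4 of 167 had all and 97 none. The full set was thus more common in the macrophages than in either reference, without being exclusive to them. Of the 13 cells just inside the Cd163 limit 2 had all 4, and of the 45 just outside 10 did. Cells with the full set thus lay on both sides of the limit. The cells just outside were deeper, at a median of 10074 compared with 3555 UMIs, so the shares cannot be compared directly. Trem2 itself overlapped: 66 of the macrophages had at least 2 Trem2 UMIs and 40 had none, and its level was 225 CPM compared with 610 in Trem2 cells.

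**Figure D2:**
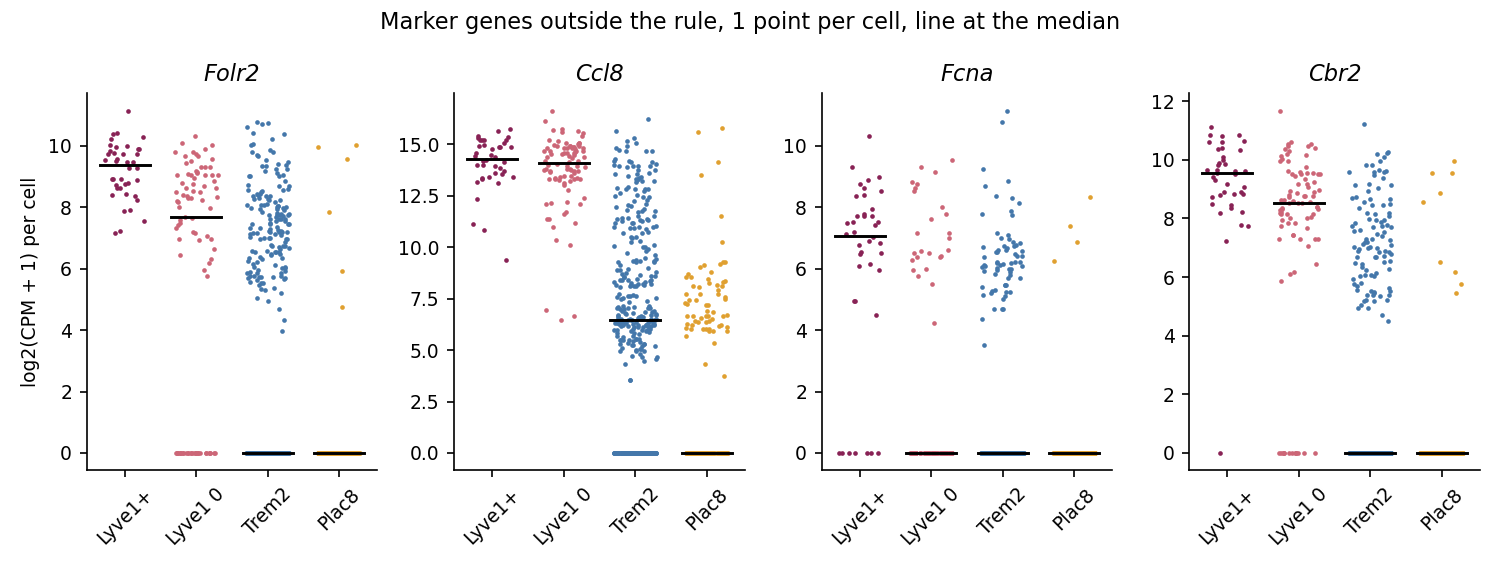
Folr2, Ccl8, Fcna and Cbr2 per cell, as log2 of CPM with 1 added, in 40 macrophages with Lyve1, 90 without, 366 Trem2 cells and 167 Plac8 cells. Each point is a cell and each line a median; Ccl8 had 23786 CPM over all macrophages and 2583 over Trem2 cells.

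General macrophage genes were present, as the name requires. Csf1r, the receptor that macrophages need to survive, had 524 CPM in the macrophages and 380.1 in Trem2 cells, Adgre1 (F4/80) 274 and 216, and Cd68 528 and 680. These 3 genes stayed within 2-fold, whereas the lysozyme gene Lyz2 was lower at 2271 compared with 9817 CPM (log2 ratio -2.11, -2.16 to -2.07). Some genes used for resident macrophages elsewhere were absent or nearly so: Timd4 had 3 UMIs over all 130 cells and Vsig4 had 0. Whether the cells were resident in the host before grafting was not measured, and they are named here by their genes alone.

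The marker genes lie apart in the genome. On the GRCm38 build, Cd163 (ENSMUSG00000008845) lies on chromosome 6 from 124304656 to 124330527 on the plus strand, Mrc1 (ENSMUSG00000026712) on chromosome 2 from 14229392 to 14332057 (plus), and Fcna (ENSMUSG00000026938) on chromosome 2 from 25624666 to 25628030 (minus). Ccl8 (ENSMUSG00000009185) lies on chromosome 11 from 82115185 to 82116799 (plus), Cbr2 (ENSMUSG00000025150) on chromosome 11 from 120729489 to 120732114 (minus), and Folr2 (ENSMUSG00000032725) on chromosome 7 from 101839988 to 101857194 (minus). The positions come from GENCODE M21 by gene identifier, because the study names a human build in its methods and mm9 in its processing notes, while the deposited identifiers are those of mouse genes.

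The cultures nearly lacked such cells. The same limits found 3 of 7257 kept Co-Mac cells (0.0413%, 0.00853 to 0.121%) and 0 of 8825 VD-Mac cells, which allows up to 0.0340%. Ccl8 had 0 UMIs in both cultures, and Folr2 and Cbr2 had 1 each in Co-Mac and 0 in VD-Mac, in libraries deeper than that of the grafts. Among the markers that took no part in the choice Fcna was the exception, with 92 UMIs in 85 Co-Mac cells and 39 UMIs in 38 VD-Mac cells. Cd163 itself had 77 UMIs in 69 Co-Mac cells and 9 UMIs in 9 VD-Mac cells. Mrc1 was not missing, at 62.7 CPM in Co-Mac and 14.1 in VD-Mac, and neither was Trem2, at 156.8 and 343 CPM. Tissue, cell source, growth factor and library all differ between the grafts and the cultures and cannot be told apart.

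The comparison with Trem2 cells asks how far these macrophages differ from the other large macrophage group of the graft. A gene was counted as higher or lower where its levels differed by 2-fold or more and the larger level reached 20 CPM. Of 5933 genes compared, 404 were higher in the Cd163 Mrc1 macrophages (6.81%) and 247 lower (4.16%), and the median log2 ratio of all genes was 0.21. Scaling by the median of ratios in place of total UMIs moved all log2 ratios down by 0.24 and gave 266 higher and 378 lower, so which side had more genes depended on the scaling. Of the 404 higher genes, 19 had most of their UMIs in a single cell.

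Genes known from resident macrophages were set against this background. Of a list of 26 such genes 21 could be compared, and 15 were higher and 0 lower, with a median log2 ratio of 2.00 compared with 0.21 for all genes. This list, like the others used here, was written with earlier results of these data known, so its counts are description only. Selenop, which encodes the selenium carrier selenoprotein P, had 3325 CPM compared with 831 (log2 ratio 2.00, 1.95 to 2.05). Maf, for a transcription factor of macrophages, had 856 compared with 201 (log2 ratio 2.09, 1.99 to 2.19). Some uptake genes were higher too. Gas6, for a ligand that bridges dying cells to their receptors, had 506 compared with 110.0 CPM, and Stab1, for the scavenger receptor stabilin-1, 477 compared with 144.5. The receptor for that ligand, Mertk, had similar levels of 75.7 and 68.0 CPM. Uptake genes as a whole did not follow: of 16 efferocytosis genes 4 were higher and 7 lower, with a median of -0.57, and of 8 scavenger receptor genes 2 were higher and 2 lower, with a median of -0.44. Genes of the Cd209 family were also higher, such as Cd209d at 231 compared with 17.1 CPM, though reads shared among these near-identical genes make each level uncertain.

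Genes were ranked by ratio where they reached 100 CPM in the higher group and were found in at least 25% of its cells. The text below names those with the largest ratios outside the markers. Retnla, which encodes the secreted protein RELM alpha of the type 2 response, had 1414 CPM compared with 105 in Trem2 cells (log2 ratio 3.76, 3.64 to 3.87), with 1 cell holding 551 UMIs, 19.0% of those in the macrophages. Clec10a, for a lectin that binds galactose-type sugars, had 569.6 compared with 50.7 (log2 ratio 3.49, 3.32 to 3.66). Its paralog Mgl2 had 212 compared with 49.9 CPM. Ccl24, for the eosinophil attractant eotaxin-2, had 1697 compared with 174.5 (log2 ratio 3.28, 3.19 to 3.38). These genes are often read together as a type 2 pattern, but not all genes of that kind followed. Of 11 listed type 2 genes 5 were higher and 1 lower, with a median of 0.82. The receptor gene for interleukin 4, Il4ra, was higher at 427 compared with 145 CPM.

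Other leading genes had various roles. Gja1, for the gap junction protein connexin 43, had 503 CPM compared with 61.7 (log2 ratio 3.03, 2.86 to 3.19). Fcgrt, for the receptor that rescues antibodies and albumin from breakdown, had 984 compared with 140.9 (log2 ratio 2.80, 2.69 to 2.91), and Ednrb, for an endothelin receptor, 262 compared with 44.6 (log2 ratio 2.56, 2.35 to 2.76). Npl, for an enzyme that breaks down sialic acid, had 332 compared with 52.1 CPM. The gene ranked highest, Gm37800, is a predicted gene whose role is not known, at 184.5 compared with 7.87 CPM. With Ccl8, Cbr2 and Lyve1, the genes Msx3, Rcn3, Stard8 and Tns1 completed the 15 leading genes, with log2 ratios from 2.29 for Tns1 to 3.75 for Rcn3.

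Chemokine genes beyond Ccl8 were higher in part. Ccl7 and Ccl2, whose products draw in monocytes, had 2263 compared with 508 CPM and 1404 compared with 459.9 CPM. Ccl12, a further monocyte attractant, had 649 compared with 183, and Ccl6 3778 compared with 1711. Of 16 listed ligands 6 were higher and 2 lower, with a median of 0.19 that did not stand out from the 0.21 of all genes. Growth factor genes were divided as well, with 4 of 14 higher and 2 lower. Hbegf, for an epidermal growth factor ligand, had 1156 compared with 554 CPM, while Vegfa, the main vessel growth factor, was at 175 compared with 374 CPM.

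Several of the lower genes are known from Trem2 macrophages. The reference was chosen by Trem2, and how much of that contrast follows from the choice was not tested. Spp1, for the matrix protein osteopontin, had 640.4 CPM compared with 13559 (log2 ratio -4.40, -4.48 to -4.33), with medians of 3 and 30 UMIs per cell. Gpnmb, for a membrane glycoprotein of lipid-laden macrophages, had 43.0 compared with 855 (log2 ratio -4.32, -4.64 to -4.01). Cd9, for a tetraspanin, had 68.8 compared with 654, and Lpl, for lipoprotein lipase, 78.6 compared with 662. Of 19 lipid-associated genes 9 were lower and 1 higher, with a median of -0.85. The 9 include Trem2, whose direction the choice of the reference fixed, and the 1 was Fabp4, which had 721 of its 804 UMIs in 1 cell and, without that cell, 41.8 CPM compared with 121 in Trem2 cells. Apoe, which carries lipid out of cells, did not differ by 2-fold, at 5720 and 6019 CPM.

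Enzymes that break down matrix were split. Mmp12, for macrophage elastase, had 542 compared with 4621 CPM (log2 ratio -3.09, -3.18 to -3.01) and Ctsk, for the collagen-degrading cathepsin K, 58.6 compared with 448 (log2 ratio -2.94, -3.21 to -2.67). The collagenase gene Mmp13 went the other way, at 1916 compared with 682 CPM (log2 ratio 1.49, 1.43 to 1.55), but within single hashtags it was under 2-fold in HumanHashTag4 (0.50) and turned in HumanHashTag3 (-0.63). Of the 14 listed genes of matrix breakdown 1 was higher and 3 lower. Itgax (CD11c) had 15.6 compared with 215 CPM, and Mfge8, for another bridge to dying cells, 42.5 compared with 488. Genes of glycolysis and hypoxia had a median of -0.89, with 8 of 17 lower and 0 higher, among them Gapdh at 680 compared with 1538 CPM and the glucose transporter gene Slc2a1 at 62.0 compared with 139.

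**Figure D3:**
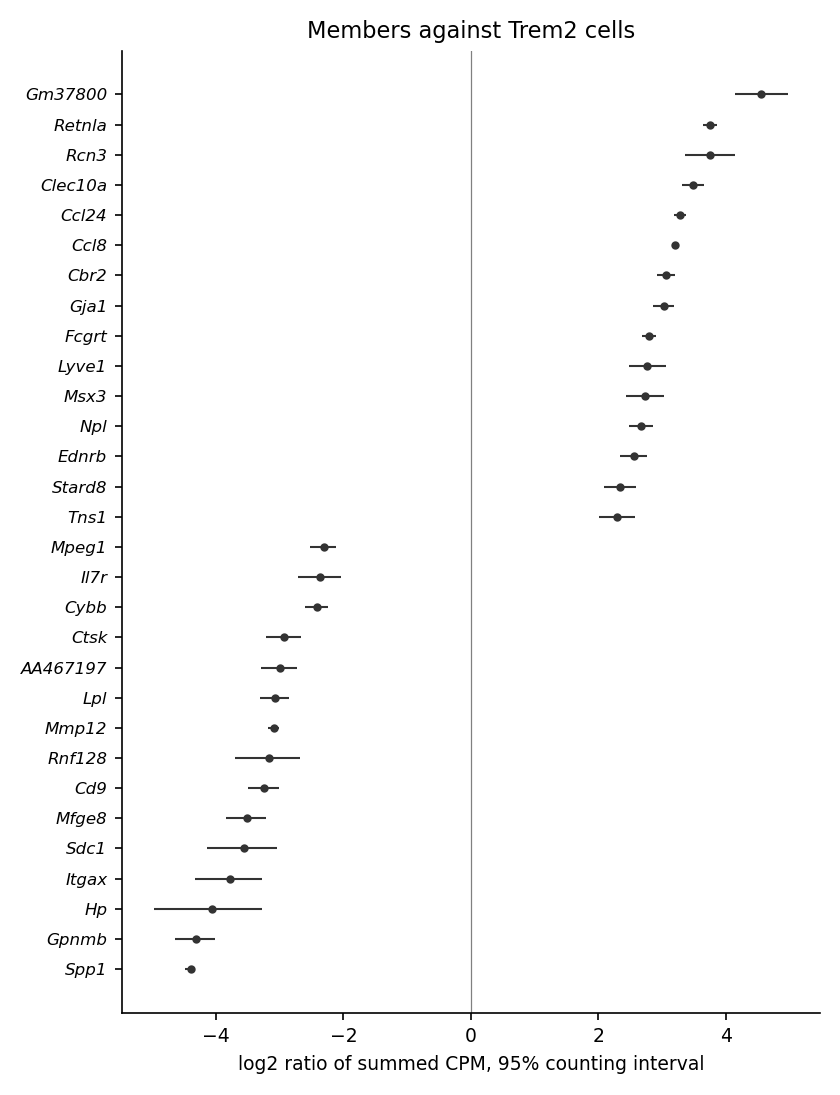
Log2 ratio of summed CPM, Cd163 Mrc1 macrophages (members) over Trem2 cells, for the 15 ranked genes with the largest ratios in each direction. Bars through the points are 95% counting intervals, and the genes run from Gm37800 (4.55) to Spp1 (-4.40).

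Iron, complement and cell cycle genes were also read. Of 13 iron and haem genes 2 were higher and 2 lower, and of 13 complement genes 3 and 2. Of 7 cell cycle genes 2 were higher and 0 lower. Fth1, for the iron store ferritin, had 10846 compared with 31178 CPM, while Tfrc, for the receptor that imports iron, had 342 compared with 158. C1qa, for a chain of the first complement component, was within 2-fold at 3051 and 2053 CPM. C4b was higher at 171 compared with 40.8 CPM, with reads of the near-identical C4a making its level uncertain. Mki67, a gene of dividing cells, had 82.0 compared with 18.3 CPM, but 29.8% of its UMIs in the macrophages lay in 1 cell. MHC class II genes, which present antigen, had a median of -0.58 with none of 6 past 2-fold, and the median turned to 0.25 within the cells of 1 hashtag, HumanHashTag4. It did not turn where hashtags were assigned by a leading share of 60%.

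The comparison with Plac8 cells sets the macrophages against cells with monocyte genes. Plac8 itself was also found in 64.2% of fibroblasts thinned to 2000 UMIs. The Plac8 reference was mixed: 17 of its 167 cells had at least 20 collagen UMIs and held 99.6% of its collagen UMIs, and 11 had at least 10 UMIs of the neutrophil genes S100a8 and S100a9. Of 6409 genes, 805 were higher in the macrophages (12.6%) and 780 lower (12.2%), with a median log2 ratio of 0.13. Leaving out the Plac8 cells with collagen, a step added after seeing the data, gave 979 higher and 532 lower. Col1a1, at 27.3 CPM compared with 4201 before, then turned from a log2 ratio, with 1 CPM added, of -7.21 to 0.68. Median-of-ratios scaling moved the ratios down by 0.16 and gave 631 higher and 914 lower.

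Resident macrophage genes were again higher. Of 22 compared, 17 were higher and 1 lower, with a median of 2.61. Outside that list, Retnla had 1414 compared with 17.4 CPM (log2 ratio 6.35, 5.89 to 6.84), C1qa 3051 compared with 304, and Igf1, for a growth factor of repair, 313 compared with 35.2. Within it, Pf4, for platelet factor 4, had 1430 compared with 48.6 CPM (log2 ratio 4.88, 4.60 to 5.17), and Stab1 477 compared with 26.7. Pf4 was not particular to the macrophages, since Trem2 cells had 1785 CPM of it. Of 14 monocyte genes 11 were lower, among them Plac8, whose direction the choice of the reference fixed, and 1 higher, with a median of -2.94. Ly6c2, a marker of inflammatory monocytes, had 8.30 compared with 177 CPM, and Vcan, for the matrix proteoglycan versican, 12.2 compared with 263. All 7 MHC class II genes compared were lower, with a median of -1.80 that was -2.26 without the collagen-bearing cells, such as H2-Ab1 at 674 compared with 3076 CPM. The Plac8 cells also held genes of dendritic cells, as 3 of 4 such genes compared, Flt3, Ccr7 and Fscn1, were lower in the macrophages, with a median of -2.79.

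Within the macrophages, 40 cells had at least 1 Lyve1 UMI and 90 had none. Lyve1-positive cells of connective tissue are known to line vessels, and the split asks what else such cells carry. It is not free of depth, since the positive cells had a median of 16405 UMIs and the others 11873.5, so a Lyve1 UMI was more easily found in them. The positive cells had from 1 to 31 Lyve1 UMIs with a median of 5.5, and 25 of them had at least 5. Their median mitochondrial share was 5.08%, compared with 3.85%.

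The markers divided unevenly across the split. Without thinning, all 4 non-rule markers were present in 32 of the 40 Lyve1-positive cells (80.0%) and in 24 of the 90 others (26.7%). These shares depend on depth. Fcna was found in 82.5 and 28.9% of cells without thinning. Thinned to 2000 UMIs, it was found in 22.5% (10.8 to 38.5%) and 8.14% (3.34 to 16.1%). Ccl8 was level over all cells, at 24249 and 23445 CPM, and within HumanHashTag4, but not within HumanHashTag3, with a log2 ratio of -0.78 (-0.88 to -0.68) between 5 and 11 cells, or HumanHashTag5, with 0.46. Over all cells Folr2 had 660.5 compared with 389.9 CPM and Fcna 166 compared with 76.3 (log2 ratio 1.12, 0.73 to 1.52). Within HumanHashTag3 the log2 ratios were 0.58 (-0.02 to 1.15) for Folr2 and 0.48 (-0.85 to 1.69) for Fcna, the latter then under 2-fold. Thinned to 2000 UMIs, Folr2 was found in 67.5% of Lyve1-positive cells (50.9 to 81.4%) and 36.0% of the others (26.0 to 47.1%), compared with 0 of 240 T cells. The Cbr2 shares differed between thinning depths. Cbr2 was found in 24 of 40 and 49 of 86 cells (57.0%) at 2000 UMIs, but in 97.4% (86.2 to 99.9%) and 71.0% (58.8 to 81.3%) at 5000 UMIs, where 0.592% of T cells had it. Thinning to 5000 UMIs left out 2 and 21 cells, and each share is 1 random draw, so the part of depth was not tested.

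Of 6137 genes compared, 316 were higher in Lyve1-positive cells (5.15%) and 236 lower (3.85%), with a median log2 ratio of -0.04. Small groups made single cells count: 61 of the 316 higher genes (19.3%) had most of their UMIs in 1 cell. A single Lyve1-positive cell of 64481 UMIs carried 57 UMIs of the endothelial gene Pecam1 and 97.6% of the Fabp4 UMIs and 88.2% of the Sparc UMIs of its group. Of other endothelial genes it held 60 of the 64 Cdh5 and 17 of the 18 Kdr UMIs of its group. It also held all 21 Tie1, 19 Egfl7, 8 Emcn and 30 Plvap UMIs, but 0 of the 2 Vwf UMIs. The blood endothelial median of the split was 4.14 with that cell and -0.44 without it. Fabp4, for a fatty acid carrier, led the ranking at 850.4 compared with 55.1 CPM, but without that cell it had 22.4 CPM and the ratio turned. Without it the counts were 257 higher and 257 lower. Sparc, for a matrix protein, then had 24.9 compared with 22.0 CPM.

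Several higher genes did not rest on that cell. Plac8 ranked next after Fabp4, at 148 compared with 11.0 CPM (log2 ratio 3.75, 2.93 to 4.70) and in 65.0% and 12.2% of cells, though it turned to -1.01 (-6.63 to 1.83) within HumanHashTag5, where it had 8 UMIs. Thinned to 2000 UMIs, Plac8 was found in 30.0% of Lyve1-positive and 5.81% of Lyve1-negative cells, and in 64.2% of fibroblasts. Retnla had 2705 compared with 462 CPM (log2 ratio 2.55, 2.41 to 2.69), and Clec10a 1068 compared with 203 (log2 ratio 2.40, 2.19 to 2.61). Within HumanHashTag5, however, Clec10a was not higher, as given below. C4b had 337 compared with 48.3 CPM (log2 ratio 2.80, 2.39 to 3.24), again with uncertainty from C4a, and C6, for a component of the membrane attack complex, 127 compared with 16.1. F13a1, for a factor that cross-links fibrin, had 694 compared with 188 CPM, and Ltc4s, for leukotriene C4 synthase, 76.0 compared with 8.48. The neutrophil attractants Cxcl1 and Cxcl2 were at 385.5 compared with 60.2 CPM and 5055 compared with 2099 CPM. Cxcl1 turned within HumanHashTag5, at -0.24, and within HumanHashTag3, at -0.42 from 5 UMIs in all, and F13a1 was under 2-fold within HumanHashTag4 (0.84) and HumanHashTag5 (0.49). Of 22 resident macrophage genes, Lyve1 among them, 10 were higher and 2 lower, with a median of 0.89 that turned to -0.28 within HumanHashTag5. That median did not turn where hashtags were assigned by a leading share of 60%. Complement genes followed in part, with 4 of 14 higher and 0 lower and a median of 0.45.

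Over all cells, the Lyve1-negative cells carried more RNA of several enzymes that break down matrix. Mmp13 had 3281 CPM in them and 63.3 in Lyve1-positive cells (log2 ratio -5.70, -6.11 to -5.31), with UMIs in 39 of 90 and 9 of 40 cells and 22.0% of the UMIs in 1 cell. The higher Mmp13 level of the macrophages over Trem2 cells thus came from the Lyve1-negative cells. Of 13 matrix breakdown genes 6 were lower in Lyve1-positive cells and 0 higher, with a median of -0.76. The 6 include Timp1, for an inhibitor of such enzymes, besides Mmp13 and Adam8. The other 3, Mmp14, Mmp19 and Mmp9, had log2 ratios of -1.16, -1.35 and -2.58. Within HumanHashTag3, between 5 and 11 cells, Mmp13 was lower by under 2-fold, and Mmp12 and Ctsk ran the other way. Mmp12 had 6602 and 30.0 CPM there (log2 ratio 7.74, 6.55 to 9.41), and Ctsk a log2 ratio of 1.23 (0.01 to 2.43). Ccl24 had 347.5 CPM in Lyve1-positive cells and 2691 in the others (log2 ratio -2.95, -3.13 to -2.78). Itgb3, for a chain of the vitronectin receptor, had 10.4 and 130.5, and Pgf, for placental growth factor, 65.6 and 328. Type 2 genes therefore fell on both sides: Retnla lay with Lyve1, whereas Chil3, for the lectin Ym1, had 344 and 1554 CPM.

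**Figure D4:**
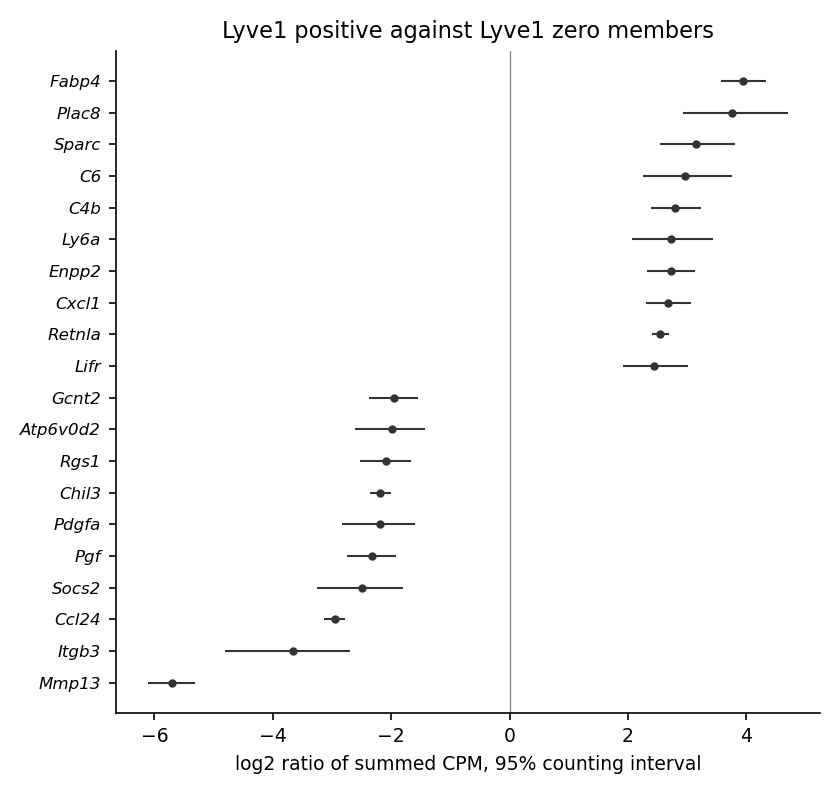
Log2 ratio of summed CPM, Lyve1-positive over Lyve1-negative macrophages (members), for the 10 ranked genes with the largest ratios in each direction. Bars are 95% counting intervals, and Mmp13 lies lowest at -5.70, while the Fabp4 and Sparc ratios rest on 1 cell.

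Genes of other cell types were read in the same cells, and their part in the results was not tested. The T cell list summed to 6.35 CPM in the macrophages with Cd3e and Trac at 0, and the keratinocyte list to 3.91 with 6 of 7 genes at 0. Fibroblast genes summed to 227 CPM, led by Sparc at 95.7, compared with 83.8 in Trem2 cells and 17564 in Plac8 cells. The cell with the most Pecam1 held 150 of the 196 Sparc UMIs, and without it the sum was 157 CPM and Sparc had 23.2. Neutrophil genes summed to 248 CPM, led by Mmp9, compared with 458 in Trem2 cells, with Ly6g at 0. Blood endothelial genes summed to 234 CPM, led by Pecam1 at 149, compared with 66.2, and to 135 without that cell, with Pecam1 at 125.5. Of the lymphatic endothelial genes, which share Lyve1 with these cells, Flt4, Ccl21a, Mmrn1 and Reln were at 0, and Pdpn made up nearly all of the 360.2 CPM. The dendritic list summed to 137 CPM, led by Cd209a at 122.5, compared with 14.8 and 4.78 in Trem2 cells, and 10.0% of the macrophages had Cd209a.

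Lists of other cell types also differed across the Lyve1 split. Cd209a had 208 CPM in Lyve1-positive and 59.3 in Lyve1-negative cells, the latter with 74.3% of its UMIs in 1 cell. B lineage genes summed to 135 and 54.3 CPM, with Cd79b and Ighm higher. Collagen UMIs reached 3 or more in 37.5% and 16.7% of cells, without thinning, and the Lyve1-positive cells were deeper. Of 4 fibroblast genes compared by CPM only Sparc was higher, with 88.2% of its UMIs in 1 cell. The median log2 ratio of these fibroblast genes was -0.13. Pecam1 ran the other way, at 104.7 and 182 CPM. Without the cell with the most of it, the Lyve1-positive level was 42.3 CPM.

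Genes that respond to tissue digestion moved with both comparisons. They summed to 14173 CPM in the macrophages and 8605 in Trem2 cells, with a median log2 ratio of 0.65 and 5 of 16 higher, and to 17980 in Lyve1-positive and 11369 in Lyve1-negative cells. Egr1, an early response gene, had 1262 CPM compared with 360.3 in Trem2 cells. Their part in the other differences was not tested.

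The library also held counts of hashtag antibodies, which are used to tag cells of separate samples before pooling, but no source says which hashtag belongs to which mouse. A cell was assigned when exactly 1 hashtag reached 3 times its median, a limit settled after the hashtag counts had been seen. Of the 130 macrophages 113 were assigned, 57 to HumanHashTag5, 38 to HumanHashTag4, 16 to HumanHashTag3 and 2 to HumanHashTag2. The Trem2 cells were tagged otherwise, with 56.8% of those assigned in HumanHashTag4 and 32.6% in HumanHashTag5, compared with 33.6 and 50.4% of the macrophages, so the ratios over all cells also compare hashtags. Within HumanHashTag4 and HumanHashTag5 the log2 ratios to Trem2 cells, with 1 CPM added, were 3.00 and 2.81 for Ccl8, 1.26 and 2.26 for Folr2, 1.20 and 3.24 for Fcna, and 2.34 and 4.19 for Cbr2. The 15 leading higher and 15 leading lower genes against Trem2 cells had the same direction within each of HumanHashTag3, HumanHashTag4 and HumanHashTag5. Those genes were picked by their ratios over all cells, these included, so the shared direction was partly built in. The higher Mmp13 level was less even, with ratios of 1.22 within HumanHashTag5, 0.50 within HumanHashTag4, which is under 2-fold, and -0.63 within HumanHashTag3.

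The Lyve1 split was uneven across hashtags. HumanHashTag4 held 22 of 36 assigned Lyve1-positive cells (61.1%) and 16 of 77 others (20.8%), while HumanHashTag5 held 9 and 48 (25.0 and 62.3%). Lyve1 and hashtag therefore moved together, and ratios within 1 hashtag are the closer comparison. Mmp13 stayed lower in Lyve1-positive cells, at -5.45 within HumanHashTag4 and -6.73 within HumanHashTag5, but by under 2-fold within HumanHashTag3, at -0.56 (-1.11 to -0.04). Ccl24 was lower too, at -2.84, -1.19 and -6.51 in the same order. Retnla stayed higher at 5.37, 3.81 and 2.32, and C4b at 3.82, 1.87 and 2.40. HumanHashTag3 compares only 5 with 11 cells. Clec10a was higher within HumanHashTag4, at 3.27, and HumanHashTag3, at 2.33, but was at -0.38 (-1.04 to 0.24) within HumanHashTag5. Of the 10 leading higher genes, 10 had the same direction within HumanHashTag4, 5 within HumanHashTag5 and 6 within HumanHashTag3, and of the 10 leading lower genes 10 did in each. Those that reached 2-fold in that direction were 10, 4 and 6 of the higher genes in the same order, and 9, 9 and 6 of the lower genes. The leading genes of the split were likewise picked over all cells, these included.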

How the data were processed

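Single-cell RNA was measured in 3 droplet libraries. The authors deposited raw UMI counts per mouse gene and barcode (unit: counts) from Cell Ranger 3.1.0, without normalization and before the cell filters of their methods. Their notes name Seurat 3.1.1. The filters used here were at least 300 genes (the methods of the study speak of unique transcripts, so 300 UMIs was an alternative), under 100000 UMIs and under 10% mitochondrial UMIs, with hashtag counts left out of totals. Of 2644 graft barcodes, 306, 2 and 330 failed these in turn, some more than 1. Members and lists were chosen with earlier results of these data known.

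UMIs were summed over the cells of each group. Exact intervals came from the Poisson distribution (levels), the Clopper-Pearson method (shares) and the conditional binomial (ratios). List medians and rankings used log2 ratios with 1 CPM added. Named genes were the markers, the listed genes and the 15 (Lyve1 split: 10) largest ratios in each direction among genes with at least 100 CPM and a UMI in at least 25% of cells of the higher group. T cells had at least 3 CD3 UMIs and no Csf1r. A count of 0 is given the limit of 3 counts. The comparisons were tested on simulated group sums with counting error only. Spread among cells was not simulated, so genes resting on single cells were not covered.

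Python 3.11.15, numpy 2.4.6, scipy 1.17.1, pandas 2.3.3, scanpy 1.11.5 with its Scrublet, anndata 0.12.19 and matplotlib 3.10.9 were used, with seed 1. Alternatives covered filters, the limits of the choice, doublets (0.8% per 1000 barcodes, a rate assumed here), depth, cells with genes of other lineages, mean over cells, scaling, minimum CPM, the references, the Lyve1 split, the CPM added and the thinning depth. Another 7, added after the data were seen, covered hashtags, mixed Plac8 cells and the Pecam1 cell. Clec7a was not analysed here.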

Additional observations from a re-analysis of the deposited data

Results flagged for a closer look

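Hashtag antibody counts lie outside the gene counts that the comparisons use, and several were above the limit that a count of 0 allows. The 4 hashtags with over 10000 UMIs in kept cells were used, with 66851 to 305972, and the others had at most 470. Exactly 1 hashtag was assigned to 113 of 130 Cd163 Mrc1 macrophages and to 885 of 2144 kept cells, while 1211 kept cells had none. Of the Cd163 Mrc1 macrophages with 1 hashtag, 1.77% carried HumanHashTag2, 14.2% HumanHashTag3, 33.6% HumanHashTag4 and 50.4% HumanHashTag5. The shares of all kept graft cells with 1 hashtag were 2.60, 13.7, 37.1 and 46.7% in the same order. Trem2 cells differed more, at 1.10, 9.52, 56.8 and 32.6%. The shares depended on the assignment: by a leading share of 60% they were 1.72, 14.7, 32.8 and 50.9% of the macrophages and 1.87, 6.90, 46.7 and 44.6% of the kept cells. No source maps hashtags to mice.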

How the results depend on the processing

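Each result was recomputed with 1 choice changed at a time, except that the looser and the stricter choice of cells moved the Cd163 and Mrc1 limits together, and 1 alternative left out 2 kinds of Plac8 cells. The number of Cd163 Mrc1 macrophages was within 1.5 times of 130 in 7 of 12 alternatives (87 to 180). So were the genes higher than in Trem2 cells in 11 of 17 (322 to 595), lower in 12 of 17 (180 to 359), higher than in Plac8 cells in 15 of 18 (631 to 1195), lower in 15 of 18 (532 to 992), higher in Lyve1-positive cells in 10 of 17 (257 to 449) and lower in 8 of 17 (214 to 330). The exceptions follow, and except where fewer cells or another minimum changed the count by construction, the cause was not tested.

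Without cells that had 3 or more UMIs of other lineages, 39 macrophages were left, 649 genes were higher than in Trem2 cells, and the Lyve1 split had 753 higher and 829 lower. Within HumanHashTag4 there were 38 macrophages, 1226 genes higher than in Plac8 cells, and 670 higher and 558 lower in the split. Within HumanHashTag5 there were 57, with 775 higher and 377 lower against Trem2 cells and 563 and 807 in the split. With hashtags assigned by a leading share of 60%, HumanHashTag4 held 38 (670 and 558 in the split) and HumanHashTag5 59 (788 and 410 against Trem2 cells, 503 and 739 in the split). In the split, 362 were lower with under 5% mitochondrial UMIs and 422 with the mean over cells. Median-of-ratios scaling gave 266 and 378 against Trem2 cells. A minimum of 50 CPM gave 233 and 146 against Trem2 cells, 439 and 425 against Plac8 cells, and 128 and 107 in the split. No minimum gave 2768 and 3061, 2921 and 4233, and 2677 and 1905. Without Plac8 cells with collagen or S100a8 and S100a9 UMIs, 506 were lower than in Plac8 cells.

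Of single genes and list medians with a log2 ratio of at least 1 in size, 40 values turned direction, given as log2 ratios. The 40 leave out HumanHashTag3 and the Clec10a ratio of the Lyve1 split, which turned within HumanHashTag5 as given above. In the Lyve1 split, the blood endothelial median and Fabp4 were -0.40 and -1.79 under 5% mitochondrial UMIs (C-type lectin median -0.03), -0.34 and -1.21 without likely doublets, -0.90 and -2.26 without cells of other lineages (C-type lectin median -0.06), -3.62 and -4.91 with Lyve1 read after thinning to 5000 UMIs (Sparc -2.22), and -0.44 and -1.26 without the Pecam1 cell. Within HumanHashTag5 the C-type lectin median was -0.93, Fabp4 -3.20, Plac8 -1.01, Sparc -0.31, Ly6a -0.46 and Cxcl1 -0.24. By leading share these were -0.87, -1.74, -0.51, Ly6a -0.32 and Cxcl1 -0.33. Against Plac8 cells, the blood endothelial median was 0.16 without cells of other lineages. Without collagen-bearing Plac8 cells it was 2.51, with Col1a1 0.68, Col1a2 0.51 and Col3a1 0.70, and without those with S100 UMIs too 2.50, 0.65, 0.73, 0.73 and S100a9 0.49. It was 2.89 within HumanHashTag4 (S100a9 1.21) and 3.05 by leading share (S100a9 1.38), and S100a9 was 0.04 and 0.13 within HumanHashTag5.

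Smaller list medians turned in 77 values. Those under median-of-ratios scaling follow from its construction, since it moves all ratios of a comparison alike, down by 0.24 against Trem2 cells. In the Lyve1 split, the resident macrophage median went from 0.89 to -0.28 within HumanHashTag5, but did not turn by leading share. Of the other single gene ratios 795 stayed within their counting interval and 499 moved past it. Of all these, 3 under 2-fold changed sign, in the Lyve1 split: Ccl8 from 0.05 to -0.13 under 5% mitochondrial UMIs, and Cbr2 from 0.42 to -0.02 within HumanHashTag4 by either assignment. Groups were compared within hashtags, but no analysis paired by mouse was possible because no source maps hashtags to mice. With 1 library, differences between mice could not be measured, and sparse genes such as Fcna were limited by depth.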
